A study of Homo sapiens with 4 samples.

Results

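The genes described here encode the nuclear pore complex and the carriers that take proteins and RNA through it, measured by RNA-seq in A549 cells, a human epithelial line derived from a lung adenocarcinoma. They were chosen by name, as protein-coding genes listed in the deposited table whose symbol starts with NUP and a digit, KPNA, KPNB, IPO and a digit, XPO or TNPO, or is TPR, AAAS, SEH1L, NDC1, POM121, RANBP2, RAN, RCC1 or CSE1L. Of the 6828 genes in the table, 47 met this rule. The same rule finds 56 protein-coding genes in GENCODE release 44, and IPO4, KPNA1, KPNA3, KPNA5, KPNA7, NUP160, NUP210L, NUP42 and RANBP2 have no row in the table used here and were not analysed. All 47 passed the filter on low values.

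The comparison was between cells carrying a lentiviral control shRNA (shctrl) and cells carrying a lentiviral shRNA against the long noncoding RNA USP2-AS1 (shUSP2-AS1), both cloned in the vector pLKO.1, and RNA was taken 72 h after infection. There were 2 libraries in each group, described by the study as biological replicates, so both groups were infected and neither shows uninfected cells. Which USP2-AS1 shRNA was used is not given in the sources used here, and effects of losing USP2-AS1 cannot be told apart from off-target effects of the shRNA. The libraries held 12330115 and 10772788 reads on the listed genes in shctrl and 11715962 and 14120472 in shUSP2-AS1. Reads on other genes are not counted in these totals. USP2-AS1 itself, the label check, had normalized read counts of 23.2 and 24.2 in shctrl and 2.10 and 6.16 in shUSP2-AS1, from 24, 22, 2 and 7 reads, and was lower in both shUSP2-AS1 libraries (log2 fold change -2.39, standard error 0.56, limma adjusted p = 0.000597). The epithelial label was checked with keratins: KRT7, KRT8, KRT18 and KRT19 were listed with means of 3476 to 83641 in shctrl, while EPCAM and CDH1 have no row in the table used here. The table lists only genes that differed in the comparison of the authors, so a missing row does not show that a gene is unexpressed. The keratins differed between the groups in both directions: KRT18 was called lower (log2 fold change -1.05), KRT8 (-0.77) and KRT7 (-0.49) were lower without being called, and KRT19 was higher without being called (0.75). Their part in the results below was not tested.

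The nuclear pore complex is a ring of nucleoporins set in the nuclear envelope, with an outer Y-shaped scaffold, an inner ring, membrane proteins that anchor it, a channel lined with flexible phenylalanine-glycine repeats, filaments on the cytoplasmic face and a basket on the nuclear face. Importins bind cargo in the cytoplasm and release it in the nucleus when they meet Ran bound to GTP, a form made at chromatin by the exchange factor RCC1, and exportins carry cargo outward together with that form of Ran. Dividing cells insert new pores during interphase and rebuild them after mitosis, and several of these proteins also act on the mitotic spindle.

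Expression of nearly all of these genes was lower in shUSP2-AS1 cells. A gene was called when its limma adjusted p was below 0.05 and its absolute log2 fold change at least 1. Of the 47 genes, 13 were called lower (27.7%), against 13.5% of all 6812 genes tested, and 0 were called higher, against 16.1% of all genes tested. The share called lower was 12.6% among protein-coding genes tested and 11.7% among the better expressed genes, with means of 100 or more. The adjusted p alone put 45 of the 47 genes lower (95.7%, against 49.4% of all genes tested) and 2 higher (4.26%, against 50.6%). Because every gene in the table had an adjusted p below 0.05 in the comparison of the authors, passing that threshold here is a property of the table, and only the direction and the size of the change vary among these genes.

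The median log2 fold change of the 47 genes was -0.74, with quartiles of -1.03 and -0.56, and that of all genes tested was 0.19, with quartiles of -0.67 and 0.72. Among genes with means of 100 or more the median was -0.23. By the looser threshold of a 1.5-fold change, 31 of the 47 genes were lower, against 29.6% of all genes tested. By the stricter test against a fold change of 2, 9 were lower, against 7.68% of all genes tested, and RAN, NUP88, NUP155 and NDC1 were no longer called. Summed per kb of gene length, the 47 genes had normalized read counts of 18761 and 19175 in shctrl and 10852 and 10947 in shUSP2-AS1, or 57.5% of the shctrl mean. The groups did not overlap in any of the 47 genes, but the same held for 6811 of the 6812 genes tested (100%). In bulk RNA, fewer cells expressing a gene and less RNA per cell cannot be told apart.

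**Figure D1:**
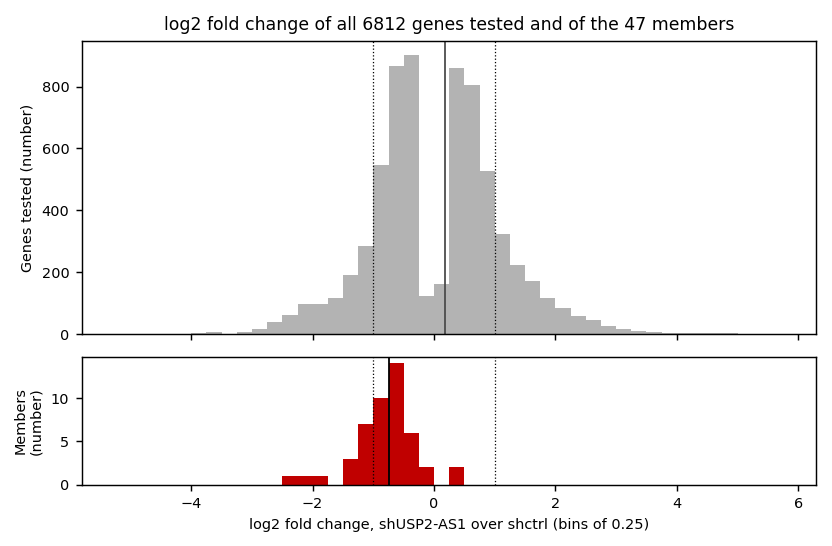
Histograms of the log2 fold change (shUSP2-AS1 over shctrl, bins of 0.25) for all 6812 genes tested (top, grey) and for the 47 pore and transport genes (bottom, red), with the number of genes on the vertical axes, the call threshold at -1 and 1 as dotted lines and the median as a solid line. The table leaves a gap around 0 among all genes, whose median is 0.19, while the 47 genes lie mostly below 0 around a median of -0.74.

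Among the 25 nucleoporins, 25 were lower at the adjusted p alone (against 49.4% of all genes tested), 8 were called lower (against 13.5%) and the median log2 fold change was -0.87. The 22 transport factors had a median of -0.59, with 5 called lower, 20 lower at the adjusted p alone and 2 higher. The plot of every gene in every library shows that the shift was not uniform within a subcomplex.

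**Figure D2:**
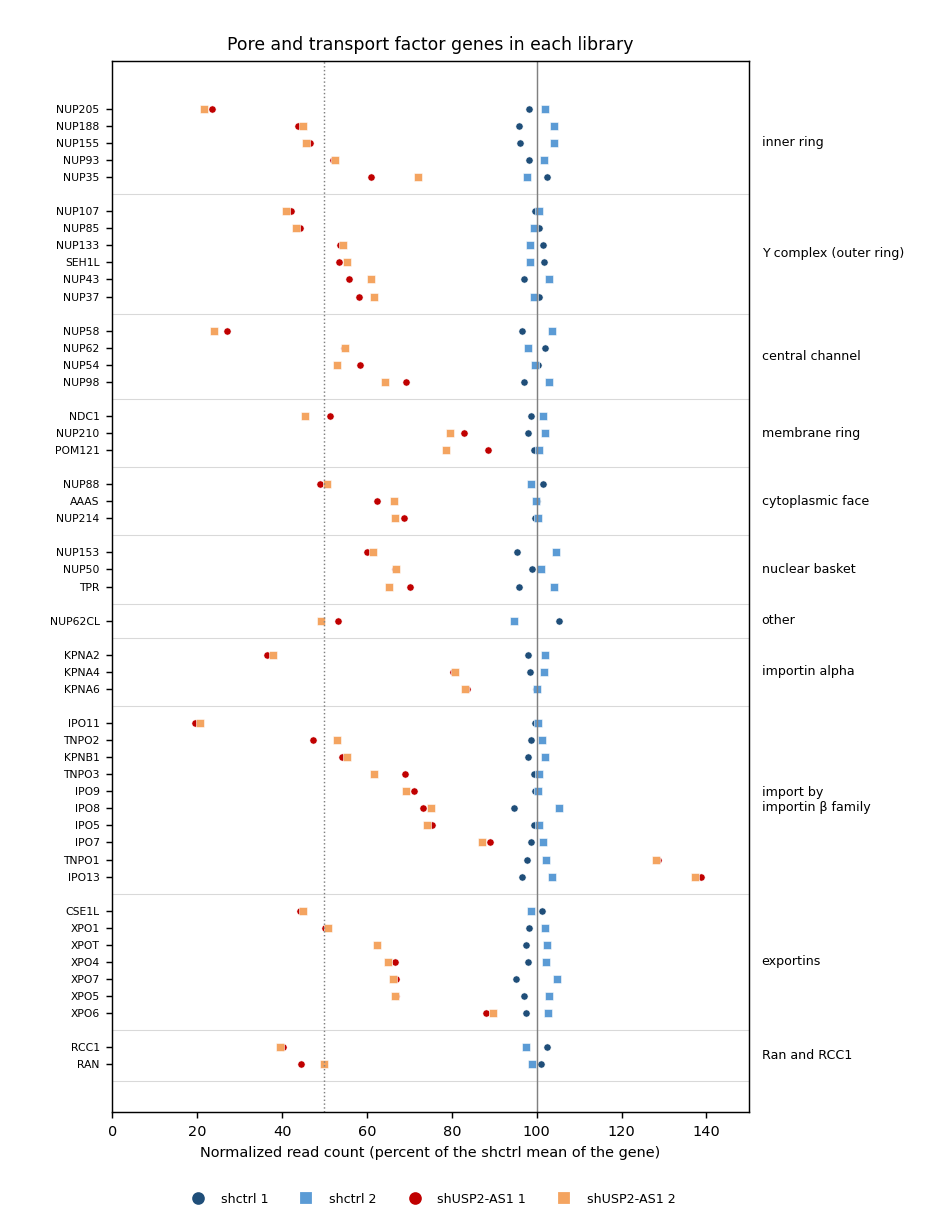
Normalized read count of each of the 47 genes in each of the 4 libraries, as a percentage of that gene's shctrl mean (horizontal axis), with genes grouped by role and ordered by fold change. Blue marks are the shctrl libraries, red and orange marks the shUSP2-AS1 libraries, the solid line is 100 percent and the dotted line 50 percent. IPO11, NUP205 and NUP58 lie farthest to the left, and only TNPO1 and IPO13 have their shUSP2-AS1 marks to the right of the solid line.

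The inner ring, the scaffold that lines the pore membrane, had the lowest median of the nucleoporin groups (-1.11). In it, 3 of 5 genes were called lower, against 13.5% of all genes tested. Called counts within a role, here and below, are too small to be read against that share. NUP205 (GRCh38 chr7:135557917-135648757, plus strand) and NUP188 encode related large scaffold proteins that each bind NUP93. NUP205 had normalized read counts of 2561 and 2657 in shctrl and 611 and 561 in shUSP2-AS1, so that 22.5% of the shctrl mean was left (log2 fold change -2.15, standard error 0.07). NUP188 had 2363 and 2567 in shctrl and 1080 and 1109 in shUSP2-AS1 (-1.17, standard error 0.06). Both genes were low in both shUSP2-AS1 libraries, but NUP205 lost more than its paralogue. Per kb of gene length, the ratio of NUP205 to NUP188 was 1.14 and 1.09 in shctrl and 0.597 and 0.533 in shUSP2-AS1, so the order of the pair turned over in both libraries. This pair and the other ratios given below were picked after their values were seen.

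NUP155, the inner ring protein next to the membrane, had 1512 and 1637 in shctrl and 734 and 718 in shUSP2-AS1 (log2 fold change -1.11, standard error 0.07). NUP93, the linker that holds the inner ring together, had a log2 fold change of -0.94 and was not called. NUP35, a small membrane-binding member, was the least changed of the group, with 480 and 458 in shctrl, 286 and 338 in shUSP2-AS1 and a log2 fold change of -0.59 (standard error 0.10). Summed per kb, the inner ring stood at 41.6% of its shctrl mean, the lowest of all roles, with importin α close to it at 42.4%. That rank depends on NUP205, which held 336 of 1095 and 349 of 1148 in shctrl. In shUSP2-AS1 it held 80.2 of 461 and 73.6 of 471.

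The outer ring, or Y complex, has 6 listed genes within the rule, of which 2 were called lower (against 13.5% of all genes tested), with a median of -0.88 (against 0.19). NUP107, the core of the stalk of the Y, had the lowest value of the group, with 1420 and 1433 in shctrl and 602 and 585 in shUSP2-AS1 (log2 fold change -1.27, standard error 0.07). NUP85, in a short arm of the Y, had 1515 and 1496 in shctrl and 665 and 651 in shUSP2-AS1 (-1.19, standard error 0.07). Replicates of these genes lay close together and far from the other group. NUP133 (-0.89), SEH1L (-0.88), which also belongs to a complex that regulates amino acid signalling, and NUP43 (-0.78) were not called. NUP37, a small β-propeller protein of the Y, changed least of these 6, with 530 and 523 in shctrl, 306 and 325 in shUSP2-AS1 and a log2 fold change of -0.74 (standard error 0.09). Outside the rule by name, the Y complex also holds AHCTF1 (-0.70) and SEC13 (-0.27), a β-propeller protein shared with vesicle coats, which were lower, not called and less changed than NUP37.

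In the central channel, NUP62, NUP58 and NUP54 form a trimer whose repeats fill the pore. NUP58 (chr13:25301556-25349800, plus strand) was called lower, with 1056 and 1134 in shctrl, 295 and 262 in shUSP2-AS1 and a log2 fold change of -1.97 (standard error 0.09), which left 25.5% of its shctrl mean. Its partners changed less, with -0.87 for NUP62 and -0.84 for NUP54, neither of them called. The ratio of NUP58 to NUP54 per kb was accordingly 0.891 and 0.964 in shctrl and 0.428 and 0.419 in shUSP2-AS1. NUP98, a repeat nucleoporin that also binds the mRNA export factor RAE1, was the least changed of the group, with 3119 and 3310 in shctrl and 2224 and 2065 in shUSP2-AS1 (-0.58, standard error 0.06).

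Of the membrane ring, 3 listed genes met the rule and 1 was called lower, against 13.5% of all genes tested. NDC1, a transmembrane protein that anchors the pore scaffold, had 1133 and 1166 in shctrl and 590 and 521 in shUSP2-AS1 (log2 fold change -1.05, standard error 0.08). Its call was lost with upper quartile scaling (-0.99), without shUSP2-AS1 replicate 2 (-0.96) and in the test against a fold change of 2. NUP210, a transmembrane protein with a large lumenal domain, and POM121, which is needed to insert pores into the closed envelope, had log2 fold changes of -0.30 and -0.26. POM121 had 1540 and 1559 in shctrl and 1371 and 1219 in shUSP2-AS1, and its near-identical copy POM121C, with which it may share reads, had a log2 fold change of -0.34. Summed per kb, the membrane ring kept 73.3% of its shctrl mean.

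On the cytoplasmic face, NUP88, the partner of NUP214 in the filaments, lay at the edge of the call, with 1408 and 1368 in shctrl, 679 and 703 in shUSP2-AS1 and a log2 fold change of -1.0045 (standard error 0.07). Its call was lost with upper quartile scaling (-0.94), without shctrl replicate 1 and without shUSP2-AS1 replicate 1 (-0.98 in both) and in the test against a fold change of 2. NUP88 overlaps the listed genes RABEP1 and RPAIN on the opposite strand, and whether the reads were counted by strand is not given in the sources used here. AAAS (-0.64), which encodes aladin, was not called. NUP214 was the least changed, with 1679 and 1693 in shctrl and 1159 and 1123 in shUSP2-AS1 (-0.56, standard error 0.06). None of the 3 listed genes of the nuclear basket was called, a count too small to set against the 13.5% of all genes tested. NUP153, which ties the basket to the pore, had 1527 and 1676 in shctrl and 960 and 985 in shUSP2-AS1 (-0.72, standard error 0.07). NUP50 had a log2 fold change of -0.58, and TPR, the coiled-coil protein of the basket filaments, had 3423 and 3720 in shctrl and 2502 and 2325 in shUSP2-AS1 (-0.56, standard error 0.06). NUP62CL, a gene related to NUP62 and the weakest expressed by read count, had 162 and 146 in shctrl and 82.0 and 75.7 in shUSP2-AS1 (-0.96, standard error 0.17).

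Importin α proteins recognise the classical nuclear localisation signal of a cargo and join it to importin β. Of the 7 importin α genes of the annotation, 3 were listed, and they moved by different amounts. KPNA2 (chr17:68035708-68046854, plus strand), the importin α known for high levels in dividing cells, had 9126 and 9501 in shctrl and 3389 and 3523 in shUSP2-AS1, or 37.1% of the shctrl mean (log2 fold change -1.43, standard error 0.05). KPNA4 had a log2 fold change of -0.31. KPNA6 had 1622 and 1628 in shctrl and 1359 and 1352 in shUSP2-AS1 (-0.26, standard error 0.06), so the groups differed by far less than in KPNA2. They did not overlap in KPNA6, which also held for 6811 of the 6812 genes tested.

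These unequal changes altered the make-up of the listed importin α transcripts. Per kb of gene length, KPNA2 made up 88.1% and 88.3% of their sum in shctrl and 76.8% and 77.5% in shUSP2-AS1. The share of KPNA4 went from 5.69% and 5.66% to 10.9% and 10.7%, and that of KPNA6 from 6.22% and 6.01% to 12.2% and 11.8%. When values were not divided by length, the mean share of KPNA2 went from 72.6% to 54.5%, a difference of -18.1 percentage points against -11.0 per kb, and that of KPNA4 from 14.8% to 24.1%. Shares within a family do not move with the scaling of a library. The shares cover only the listed genes, since KPNA1, KPNA3, KPNA5 and KPNA7 were not analysed. KPNA2 remained the leading importin α transcript in all 4 libraries.

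**Figure D3:**
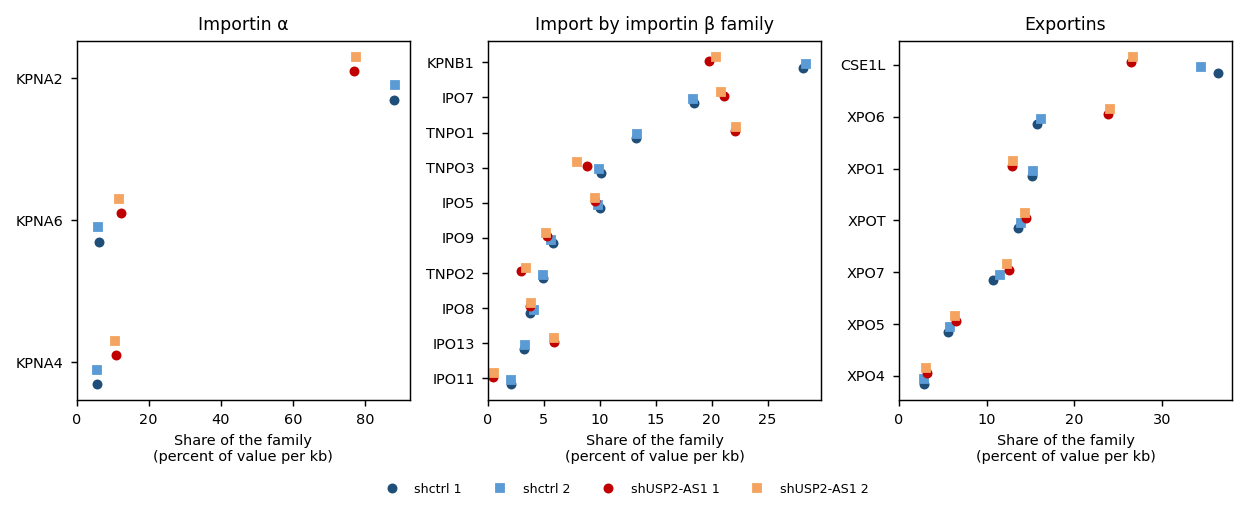
Share of each gene in the summed normalized read count per kb of its family, in percent (horizontal axis, from 0), for importin α, the import carriers of the importin β family and the exportins. Each mark is 1 library, blue for shctrl and red or orange for shUSP2-AS1, and KPNA2, KPNB1 and CSE1L have smaller shares in both shUSP2-AS1 libraries while TNPO1, XPO6, KPNA4 and KPNA6 have larger ones.

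The import carriers of the importin β family were the most varied role, ranging from -2.31 to 0.47 with a median of -0.47. Of 10 genes, 8 were lower and 2 higher at the adjusted p alone (against 49.4% and 50.6% of all genes tested), and 1 was called lower (against 13.5%, a similar share). That gene was IPO11 (chr5:62403972-62628582, plus strand), a carrier known for importing a class of ubiquitin-conjugating enzymes. IPO11 had 679 and 684 in shctrl and 132 and 141 in shUSP2-AS1, or 20.1% of the shctrl mean (log2 fold change -2.31, standard error 0.11), the lowest value among the 47 genes. The interval of IPO11 holds LRRC70 on the same strand, which is not listed.

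KPNB1, the importin β that works with importin α, had 9183 and 9574 in shctrl and 5082 and 5198 in shUSP2-AS1 (log2 fold change -0.87, standard error 0.05). It was thus lower in both libraries without reaching the fold change of the call. The transportins divided. TNPO2 had 1490 and 1531 in shctrl and 714 and 800 in shUSP2-AS1 (-0.9975, standard error 0.07) and lay just outside the call, while TNPO3, the carrier of serine/arginine-rich splicing factors, had a log2 fold change of -0.62. TNPO1 (chr5:72816312-72916733, plus strand), the close relative of TNPO2 that imports RNA-binding proteins such as hnRNP A1, had 6764 and 7063 in shctrl and 8890 and 8860 in shUSP2-AS1, or 128% of the shctrl mean (0.36, standard error 0.05). The ratio of TNPO1 to TNPO2 per kb was therefore 2.66 and 2.71 in shctrl and 7.31 and 6.50 in shUSP2-AS1.

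IPO13 (chr1:43946950-43968022, plus strand), which carries cargo in both directions, was the other gene with a higher value, with 703 and 755 in shctrl and 1012 and 1002 in shUSP2-AS1 (log2 fold change 0.47, standard error 0.07). Neither TNPO1 nor IPO13 reached the fold change of the call, and both were higher under each scaling tried (0.24 to 0.42 for TNPO1 and 0.35 to 0.53 for IPO13). IPO7, which brings in ribosomal proteins and histone H1, changed little, with 5686 and 5848 in shctrl and 5134 and 5022 in shUSP2-AS1 (-0.18, standard error 0.05). The others were IPO9 (-0.51), a histone and actin carrier, IPO8 (-0.43) and IPO5 (-0.42). Within the family, the share of KPNB1 per kb went from 28.2% and 28.4% in shctrl to 19.8% and 20.4% in shUSP2-AS1, and that of TNPO1 from 13.2% and 13.4% to 22.1% and 22.2%, so that TNPO1 stood above KPNB1 in both shUSP2-AS1 libraries. The same order of TNPO1 and KPNB1 was found without division by length, with 31.2% and 31.3% for TNPO1 and 17.9% and 18.4% for KPNB1 in shUSP2-AS1.

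All 7 exportins were lower at the adjusted p alone (against 49.4% of all genes tested) and 1 was called lower (against 13.5%, a similar share), with a median of -0.60. CSE1L (chr20:49046246-49096960, plus strand), which returns importin α to the cytoplasm, had 3837 and 3736 in shctrl and 1674 and 1704 in shUSP2-AS1, or 44.6% of the shctrl mean (log2 fold change -1.16, standard error 0.05). XPO1, the carrier of proteins with a leucine-rich export signal, lay just outside the call, with 4968 and 5162 in shctrl and 2534 and 2578 in shUSP2-AS1 (-0.99, standard error 0.05). These carriers were the lowest of the family. XPOT, the tRNA exporter, had a log2 fold change of -0.68, XPO4, known for exporting eIF5A, had -0.60, XPO7, a carrier of broad specificity, had -0.59, and XPO5, the exporter of microRNA precursors, had -0.58. XPO5 overlaps the listed gene POLR1C on the opposite strand. XPO6, which exports actin bound to profilin, was the least changed, with 3120 and 3288 in shctrl and 2823 and 2877 in shUSP2-AS1 (-0.17, standard error 0.05). The limma adjusted p of XPO6, 0.0054, became 0.0568 with upper quartile scaling and 0.0587 without shctrl replicate 2. Per kb, CSE1L made up 36.3% and 34.4% of the exportin sum in shctrl and 26.4% and 26.7% in shUSP2-AS1, while XPO6 went from 15.8% and 16.2% to 23.8% and 24.1%.

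RAN and RCC1 were both called lower. RAN (chr12:130872037-130877678, plus strand), the GTPase that gives transport its direction, had 10482 and 10264 in shctrl and 4604 and 5163 in shUSP2-AS1, or 47.1% of the shctrl mean (log2 fold change -1.09, standard error 0.06). RCC1 (chr1:28505943-28539300, plus strand), its exchange factor, had 1953 and 1859 in shctrl and 766 and 753 in shUSP2-AS1, or 39.8% (-1.33, standard error 0.06). Every shUSP2-AS1 library was below both shctrl libraries in both genes, but the groups did not overlap in 6811 of the 6812 genes tested. Reads of RAN may be shared with its 9 named pseudogene copies, and RCC1 overlaps the listed noncoding gene SNHG3 on the same strand, which was called lower with a log2 fold change of -1.03. The small RNA gene SNORA73B in the same interval was also called lower (-1.36). Other genes of the 47 have named pseudogene copies too, among them KPNA2, TNPO1 and NUP210 with 3 each, and may share reads with them. On the opposite strand, NUP43 overlaps the listed gene PCMT1 and NUP62 overlaps the listed gene ATF5.

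Across the 13 called genes the limma adjusted p lay between 1.29e-14 for NUP205 and 1.02e-09 for NDC1, and the largest among all 47 was 0.0054, for XPO6. The exact permutation test of 1 gene over 2 libraries against 2 cannot give a two-sided p below 0.333. The genes next to the call threshold were NUP88, NDC1 (-1.05) and RAN inside it and TNPO2, XPO1, NUP62CL and NUP93 outside it, so the number called depends on where the threshold is set. Scaling by RLE called 18 of these genes lower, with 1143 of all 6812 genes tested, and scaling by the upper quartile called 11, with 830 of all genes tested.

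The size of the change did not follow the level per kb of the deposited gene length, which need not be the length of the expressed transcript. Levels not divided by length were not compared with the change. Compared per kb of gene length, the highest shctrl means were those of KPNA2 (3143), RAN (2223), KPNB1 (1228), CSE1L (997) and IPO7 (799), and the lowest was that of SEH1L (69.1). The 4 most abundant transcripts included 3 called genes, KPNA2, RAN and CSE1L. That count is too small to set against the 13.5% of all genes tested that were called lower. IPO11 and NUP58, at 90.4 and 105, were among the least abundant and changed more. Over the 47 genes, the rank correlation of the shctrl level per kb with the log2 fold change was -0.00, given as a description because all points share the same 4 libraries.

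**Figure D4:**
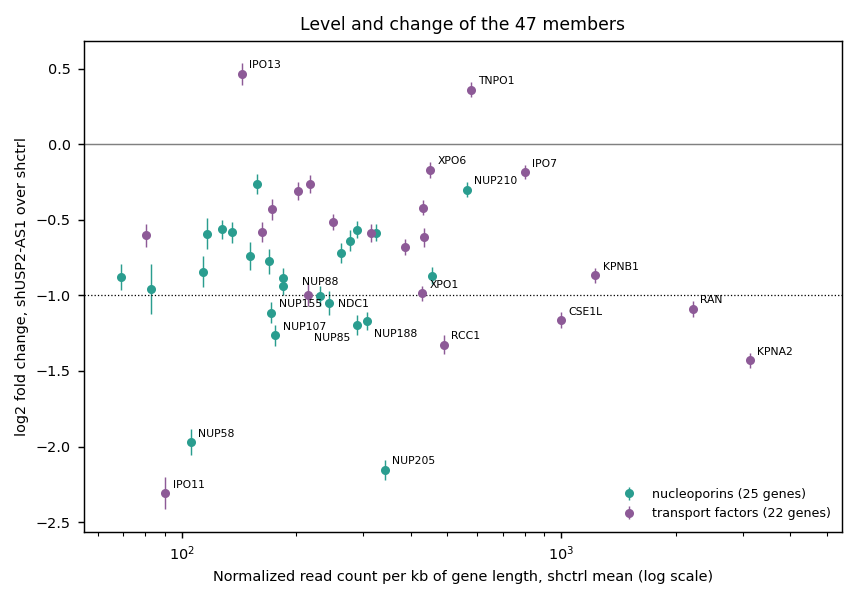
Log2 fold change of each of the 47 genes (vertical axis, bars are standard errors) against its mean normalized read count per kb of gene length in shctrl (horizontal axis, log scale), with nucleoporins in green and transport factors in purple, a solid line at 0 and the call threshold of -1 as a dotted line. Called genes range from IPO11 at 90.4 to KPNA2 at 3143, and the genes below IPO11, down to SEH1L at 69.1, were not called.

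Promoter sequences were looked at because several of these genes are known to be expressed in step with the cell cycle. RefSeq promoter windows of build GRCh38.p14, from 250 bases before to 50 bases after a gene's start, were matched by symbol for 43 of the 47 genes, at a median distance of 17 bases from the start in the deposited table. Both strands were searched for the cell cycle homology region (CHR, TTTGAA or TTTAAA), an E2F motif (TTTCCCGC, TTTGGCGC, TTTCGCGC or TTTGCCGC), the CCAAT box (CCAAT) and the Myc E-box (CACGTG), none of which contains another. Shown are the called genes with a CHR or an E2F motif near the start. Each line gives 30 bases 5′ to 3′ on the strand of the gene, with the CHR in capitals in the first 7 lines (TTCAAA in the first of them is TTTGAA on the opposite strand) and the E2F motif in capitals in the last 2.
KPNA2, chr17:68035624-68035653, plus strand: cccaacgtgtttTTCAAAtccaccaatggg
KPNA2, chr17:68035693-68035722, plus strand: gtcaccgggaaaTTTAAAtcgcgccggccg
KPNA2, chr17:68035755-68035784, plus strand: cgaggtggacccTTTGAAcgcagtcgccct
RAN, chr12:130872051-130872080, plus strand: gcgtctccggcgTTTGAAttgcgcttccgc
RCC1, chr1:28506001-28506030, plus strand: cacttcgtaaggTTTAAAaaggatgcttcg
CSE1L, chr20:49046320-49046349, plus strand: attttgccggggTTTGAAtgtgaggcggag
NDC1, chr1:53838310-53838339, minus strand: ggccttcctgccTTTGAActgcggtggcgg
NUP155, chr5:37371067-37371096, minus strand: caaggcgctcgTTTGGCGCgcgcgccctag
IPO11, chr5:62412738-62412767, plus strand: tgtgacgtagtTTTCGCGCgtccgcgtcgt

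A CHR stood in the window of 13 of the 43 genes (30.2%), against 15.4% of listed protein-coding genes and 24.3% of all RefSeq promoters. The genes were KPNA2, with 3 matches, and RAN, RCC1, CSE1L, NDC1, NUP205, NUP58, IPO11, IPO7, NUP153, NUP35, NUP37 and NUP98. Split by call, a comparison made after the values were seen, 8 of the 13 called genes (61.5%) and 5 of the 30 others (16.7%) held a CHR. The same split over listed protein-coding genes gave 171 of 640 called lower (26.7%) and 620 of 4487 others (13.8%). Within 100 bases before to 50 after the start, 7 of the 43 genes held one (16.3%, against 6.68% of listed protein-coding genes and 11.3% of all promoters), 5 of them among the 13 called genes (38.5%, against 17.7% of listed protein-coding genes called lower). NUP35 and IPO11 lie apart here, because their RefSeq starts are 6930 and 8791 bases from the starts in the table.

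The E2F motif was rarer, in 3 of 43 genes (6.98%, against 5.39% of listed protein-coding genes and 3.33% of all promoters). In the shorter window the same count stood against 2.92% and 1.71%. The genes were IPO11, the most reduced gene, NUP155, which was called, and IPO7, one of the least changed. CCAAT boxes were in 21 genes (48.8%, against 36.6% and 35.7%), in 6 of the 13 called genes (46.2%) and 15 of the 30 others (50%). Over listed protein-coding genes the same split gave 48.1% of those called lower and 35% of the others. The Myc E-box was in 5 genes (11.6%, against 10.4% and 7.43%), namely NUP188, NUP50, RAN, TNPO2 and IPO7. In the shorter window it was in 2 genes (4.65%, against 6.52% of listed protein-coding genes and 4.44% of all promoters). A match describes letters in a window and was not tested as a binding site.

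Genes of the same pathway outside the rule were also lower, with a share called close to that of all genes. Of 30 such genes in a list of further pore, Ran and mRNA export factors, 15 were listed, 15 were lower at the adjusted p alone (against 49.4% of all genes tested) and 2 were called lower (against 13.5%), with a median log2 fold change of -0.59. RANBP1, which helps release Ran from carriers, had 2397 and 2090 in shctrl and 854 and 885 in shUSP2-AS1 (-1.36, standard error 0.07). ALYREF, an adaptor of mRNA export, had 2979 and 2691 in shctrl and 1156 and 1271 in shUSP2-AS1 (-1.22, standard error 0.07). RANGAP1, the activator of GTP hydrolysis by Ran, was not called (-0.88), and NXT1 (-0.97) and NXF1 (-0.58), the mRNA export receptor, were not either. With RAN and RCC1, the listed parts of the Ran cycle were thus all lower, by different amounts.

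The nuclear lamina and envelope, in which the pores sit, split in direction. Of 14 genes, 12 were listed. At the adjusted p alone, 9 of these were lower and 3 higher, against 49.4% and 50.6% of all genes tested. By the call, 4 were lower, against 13.5% of all genes tested. The lamin B1 gene LMNB1 had 1853 and 1789 in shctrl and 324 and 414 in shUSP2-AS1 (log2 fold change -2.31, standard error 0.09). The lamin B receptor gene LBR was also called (-1.98), with TMPO (-1.31), which encodes a chromatin tether of the inner membrane, and LMNB2 (-1.19). Higher values, none of them called, were found for SUN2 (0.69), SYNE1 (0.32) and LMNA (0.27). SUN1 (-0.31), SYNE2 (-0.41) and EMD (-0.25) were lower and not called either.

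Proliferation genes were lower in the same libraries. All 20 of a list of replication and mitosis genes were called lower, against 13.5% of all genes tested, with a median log2 fold change of -2.41 and a range from -2.72 for MCM5 to -1.01 for PCNA, the replication clamp. That range overlaps the pore and transport genes, whose lowest values were -2.31 and -2.15 and whose median was -0.74. Apart from PCNA and TYMS (-1.09), the proliferation genes were at -1.87 or lower. Of the 47 pore and transport genes, only IPO11, NUP205 and NUP58 (-1.97) lay as low. The difference between the lists was not tested. The 5 with the lowest p were MCM7 (-2.71), a replicative helicase subunit, TOP2A (-2.46), the topoisomerase of mitotic chromosomes, MCM5 (-2.72), MKI67 (-2.39), a marker of dividing cells, and RRM2 (-2.33), a ribonucleotide reductase subunit. E2F1, a transcription factor of the G1/S transition, had 1280 and 1241 in shctrl and 276 and 304 in shUSP2-AS1 (-2.12, standard error 0.08). CDKN1A, which encodes the cell cycle inhibitor p21, had 7436 and 6989 in shctrl and 20618 and 20765 in shUSP2-AS1 (1.52, standard error 0.05) and was called higher. The part of proliferation in the lower values of the pore and transport genes was not tested. Of the markers of other cell types, COL1A1 of fibroblasts was listed, with 261 and 293 in shctrl and 530 and 618 in shUSP2-AS1 (1.05, standard error 0.10). PTPRC, PECAM1 and VIM have no row in the table used here, which does not show that they are unexpressed.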

How the data were processed

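The authors infected A549 cells with shctrl or shUSP2-AS1 lentivirus, and RNA was sequenced 72 h later from poly(A)-selected libraries. The submitters' processing notes name HISAT2 (version 2.0.5), featureCounts (version 1.5.0-p3), DESeq2 (version 1.20.0) and build hg38, with no role or order. The strand setting and annotation release are not given in the sources used here. The deposited values are a normalized signal, that is, the reads of a gene over the size factor of its library. All values (100% in each library, tolerance 0.01 reads) were whole reads, with 1 read worth 0.966 and 1.10 in shctrl and 1.05 and 0.880 in shUSP2-AS1. The log2 fold change and p-value columns of the authors' comparison were not used. Their deposited adjusted p-value was read to see how genes had been selected, and 0 of the 6828 genes had 0.05 or more. The columns do not carry the sample titles: those starting with sh were taken as shUSP2-AS1 and those starting with scr as shctrl, from the title of the table and the replicate number, which leaves some doubt beyond the USP2-AS1 check.

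Values were compared with limma (version 3.58.1, R version 4.3.3) on log2(value + 1), where fold changes of weakly expressed genes come out too small. The fit took genes with a mean of at least 10, and p was adjusted by Benjamini-Hochberg over 6812 genes. Standard errors and p are those of limma, which moves the variance of each gene towards a trend over all 6812 genes tested. They therefore rest on the spread between these libraries pooled over genes listed for a difference in the same comparison, not on the gene alone. Levels per kb used the deposited gene length. Replicates differed beyond counting noise (chi-square of 3.78 and 3.85 per degree of freedom) and were kept as separate samples. The recovered reads served other scalings (RLE, upper quartile, TMM), edgeR (version 4.0.16) and DESeq2 (version 1.42.0). Other alternatives were pseudocounts of 0.1 and 5, no filter or a mean of at least 100, a replicate block, each library left out, other fold change thresholds and a shorter promoter window. Methods were tested on simulated data.

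Members and lists were chosen with earlier results of these data known. Values per library are given for every called gene and for the lowest and highest fold change in each role. Values are also given for KPNA2, KPNB1, XPO1, CSE1L, RAN, RCC1, TPR, NUP98 and POM121. In the pore, lamina and proliferation lists, called genes are named, or the 5 with the lowest p.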

Additional observations from a re-analysis of the deposited data

How the results depend on the processing

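Of 752 values for the 47 genes in 16 settings, 714 stayed on the same side of the call. Signs were kept with each library left out, but most other settings leave the fold change as it was or shift all genes alike, so they could hardly change a sign. The number called lower, 13, was 18 with RLE scaling (adding NUP133, XPO1, TNPO2, NUP93 and NUP62CL), 11 with upper quartile scaling (without NUP88 and NDC1), 14 with TMM, 9 in the test against a fold change of 2 (without RAN, NUP88, NUP155 and NDC1), 31 at a 1.5-fold threshold and 13 with edgeR and with DESeq2. The median of the 47 genes, -0.74, was -0.86 with RLE and -0.68 with the upper quartile, while the median of all genes tested shifted by -0.12 and 0.06. With each library left out the median lay between -0.78 and -0.70 and 13 to 14 genes were called lower, with NUP88, NDC1, XPO1, TNPO2 and NUP62CL crossing the threshold.

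Over all genes tested, 922 were called lower and 1098 higher, against 1143 and 934 with RLE, 830 and 1204 with the upper quartile, 523 and 541 in the test against a fold change of 2, 2016 and 2124 at a 1.5-fold threshold, and 715 and 648 with a mean of at least 100, which removes genes from the test. The difference in the KPNA2 share of importin α, -11.0 percentage points, was -18.1 when values were not divided by gene length. In the shorter promoter window, the CHR was in 7 genes instead of 13 and the E-box in 2 instead of 5, so that the share with an E-box was 4.65%, against 6.52% of listed protein-coding genes and 4.44% of all promoters. The replicate numbers did not pair the libraries (correlation of deviations -0.04 across 6812 genes), and the replicate block left 13 of the 47 genes and 922 and 1098 of all genes called. With 2 libraries per group, a table selected on the same contrast and no strand information, the counts describe the listed genes only. Small changes, such as that of XPO6, could not be compared with unchanged genes, because genes without a change have no row in the table used here.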
